A study of Mus musculus with 9 samples.

Results

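Genes of hepatic de novo lipogenesis, namely the 3 regulators Srebf1, Mlxipl and Thrsp and the 7 lipogenic genes Fasn, Acly, Acaca, Scd1, Elovl6, Me1 and Pnpla3, were followed in the liver. They were chosen by name for their place in the pathway, with earlier results of these data known. They were 10 of the 27179 genes in the table. All 10 passed the filter on low counts and were among the 16860 genes tested. Bulk RNA-seq libraries were made from frozen sections of the livers of female mice on a C57BL/6 background, 5 from Apoe-/- and 4 from Mif-2-/- Apoe-/- animals. All had received a Western-type HFD (high-fat diet) from the age of 8 weeks, and livers were taken after 12 weeks of it. Both genotypes lack apolipoprotein E, which makes mice hyperlipidemic, so every library came from a hyperlipidemic animal on HFD. The Mif-2-/- Apoe-/- mice in addition lack MIF-2, also named D-dopachrome tautomerase and encoded by Ddt, in all cells. Each library came from the combined lysates of several frozen sections, and control mice with intact Apoe were not analysed here. The comparison asked whether loss of MIF-2 is accompanied by a different level of the lipogenic transcripts.

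De novo lipogenesis turns carbohydrate carbon into fatty acids, mainly in the hepatocyte cytosol. Citrate is cleaved to acetyl-CoA by ATP citrate lyase (Acly), carboxylated to malonyl-CoA by acetyl-CoA carboxylase (Acaca) and built into palmitate by fatty acid synthase (Fasn), while malic enzyme (Me1) supplies NADPH. Palmitate is then elongated by Elovl6 and desaturated by Scd1, and the program is driven by the insulin-responsive factor SREBP-1 (Srebf1) and the sugar-responsive factor ChREBP (Mlxipl), with the hormone- and diet-responsive nuclear protein THRSP (Thrsp, also called Spot 14) among its best-known outputs.

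The libraries held between 2318148 and 10764182 counts, the lowest being Mif-2-/- Apoe-/- replicate 2. Levels are given as CPM (counts scaled to the library's counts in the tested genes, which leave out the 10 genes of highest mean level, and to its TMM factor). Where both genotypes are averaged, they are means ± SD of the 5 Apoe-/- and the 4 Mif-2-/- Apoe-/- libraries. Ddt averaged 658 ± 283 CPM in Apoe-/- against 4.18 ± 1.45 CPM in Mif-2-/- Apoe-/- livers, as the genotype labels require. The 10 most abundant genes of each library took 15.16 to 24.31% of its counts in Apoe-/- and 13.71 to 27.0% in Mif-2-/- Apoe-/- libraries. Mif-2-/- Apoe-/- replicate 2 thus had both the fewest counts and the largest of these shares, and values that rest on it are given with and without it. The summed hepatocyte markers were between 63775 and 149907 CPM (of all counts, without TMM scaling), and the summed markers of macrophages, endothelial, stellate and biliary cells overlapped between the genotypes. In bulk tissue, fewer cells of a type and less RNA per cell cannot be told apart. The labels number the libraries without tying them to separate animals, and the study gives fewer mice for the Apoe-/- group of these data than there are Apoe-/- libraries. Some libraries may therefore share an animal, in which case p-values are too small, and they measure the spread between these libraries, which may be technical in part. A p above the threshold does not show that levels were equal.

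The letters upstream of the start are shown for 4 genes, Thrsp, Fasn and Acly, which had the largest positive differences of the 10, and Me1, which had the largest negative difference. They are RefSeq sequences of GRCm38.p6, 5′ to 3′ on the gene's own strand, all from the minus strand. Each ends at the annotated start, or earlier where an exon of the GENCODE annotation covers the last bases of the 250-base window. Capitals mark matches on either strand to the letters of a CCAAT box (CCAAT), a GC box (GGGCGG) or the nuclear receptor hexamer (AGGTCA).
Thrsp, chr7:97417731-97417800: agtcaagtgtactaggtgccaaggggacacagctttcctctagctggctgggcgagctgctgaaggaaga
Fasn, chr11:120824548-120824797: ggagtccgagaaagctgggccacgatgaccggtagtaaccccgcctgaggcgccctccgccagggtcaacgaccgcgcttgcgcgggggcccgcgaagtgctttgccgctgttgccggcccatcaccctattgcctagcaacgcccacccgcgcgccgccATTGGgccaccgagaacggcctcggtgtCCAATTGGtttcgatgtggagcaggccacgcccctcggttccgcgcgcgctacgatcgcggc
Acly, chr11:100528001-100528250: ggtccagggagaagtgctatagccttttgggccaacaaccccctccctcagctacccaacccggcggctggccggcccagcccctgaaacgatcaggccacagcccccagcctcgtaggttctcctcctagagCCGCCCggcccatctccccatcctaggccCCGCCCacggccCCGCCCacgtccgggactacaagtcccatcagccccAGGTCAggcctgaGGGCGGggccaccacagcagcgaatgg
Me1, chr9:86695954-86696164: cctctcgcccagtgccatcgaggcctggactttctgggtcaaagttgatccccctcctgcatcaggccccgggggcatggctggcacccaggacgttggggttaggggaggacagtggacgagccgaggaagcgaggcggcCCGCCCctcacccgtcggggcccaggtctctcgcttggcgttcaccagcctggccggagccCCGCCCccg

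The Fasn window held 3 CCAAT matches, of which a pair overlap on opposite strands. The Acly window held 4 GC boxes and 1 AGGTCA, and the shortened Me1 window 2 GC boxes. In Thrsp, 2 further CCAAT matches lay 79 and 52 bases before the start, in the stretch not shown. Of 32851 upstream windows of 250 bases in the same table, 33.8% held a CCAAT box, 32.7% a GC box and 14.0% the hexamer, so all 3 are common in such windows. The sterol response element letters TCACNCCAC (1.05% of windows) and the E-box CACGTG (6.02%) were found upstream of Mlxipl, at different starts. They were found in no window of the other members that had an entry. The D-box TTATGTAA, to which the clock output factors DBP and TEF bind, occurred in 0.819% of all windows and in none of the 13 windows of the 10 genes, among which Scd1 had no entry. A match is a run of letters and not a measured binding site. Only these letters in windows of 250 bases were searched, so the lack of a match does not show that a site is absent.

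Of the 10 genes, only Thrsp was called by the edgeR quasi-likelihood test at an adjusted p-value under 0.05, and it was higher in Mif-2-/- Apoe-/- livers. Over all 16860 genes, 0.130% were called, 12 of them higher and 10 lower. At an unadjusted p under 0.05, 2 of the 10 were higher (Thrsp and Acly), beside 8.99% of all genes, and 1 was lower (Me1), beside 6.52%. DESeq2 called Thrsp and Acly, beside 4.80% of the 14302 genes for which it gave an adjusted p. In Thrsp every Mif-2-/- Apoe-/- library lay above every Apoe-/- library, as in 2.03% of all genes, and in Me1 every one lay below, as in 2.24%. The other 8 genes overlapped. The median log2 fold change of the 10 (Mif-2-/- Apoe-/- over Apoe-/-, here and below) was 0.26, beside 0.17 over all tested genes, with 7 positive and 3 negative values, so as a group the 10 genes lay close to the bulk of the transcriptome while single members departed in opposite directions.

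**Figure D1:**
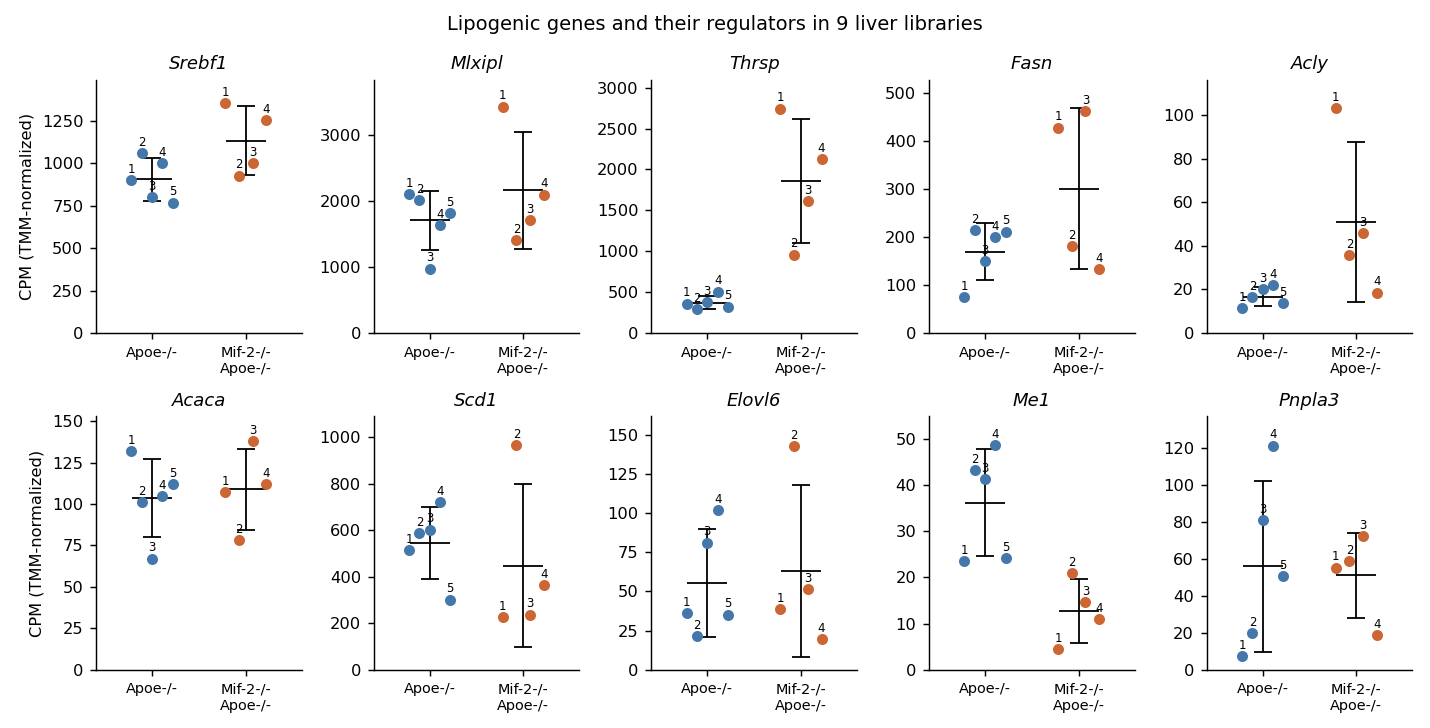
Level of each of the 10 genes in CPM (vertical axis, from 0) in the 5 Apoe-/- (blue) and 4 Mif-2-/- Apoe-/- (orange) libraries, numbered by replicate, with the mean and SD in black. Thrsp separates the genotypes upwards and Me1 downwards, while Scd1 and Elovl6 are highest in Mif-2-/- Apoe-/- replicate 2.

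**Figure D2:**
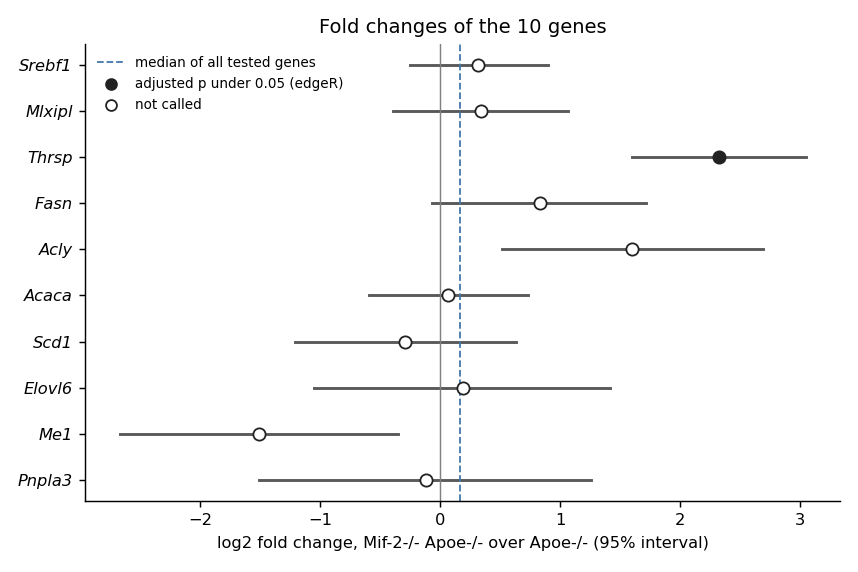
Log2 fold change of each gene (horizontal axis) with its 95% interval from the edgeR fit, and the median of all tested genes as a dashed line at 0.17. Only Thrsp (filled) was called, and the intervals of Acly and Me1 lie on opposite sides of 0.

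Among the regulators, the transcripts of both transcription factors were abundant, and neither was called as different between the genotypes. Srebf1 (Entrez 20787, chr11:60199089-60222581, minus strand, GRCm38), which encodes SREBP-1, was at 898, 1059, 798, 998 and 767 CPM in Apoe-/- replicates 1 to 5 and at 1351, 927, 999 and 1253 CPM in Mif-2-/- Apoe-/- replicates 1 to 4. Replicates 1 and 4 of the Mif-2-/- Apoe-/- livers were the highest of all 9, and the other 2 lay within the Apoe-/- range. The log2 fold change was 0.32 (SE 0.27, 95% interval -0.25 to 0.90, adjusted p = 0.598), and the exact permutation test over all arrangements of the 9 libraries gave p = 0.0952 (two-sided). The table counts all transcripts of the locus together, so the SREBP-1a and SREBP-1c forms were not separated.

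Mlxipl (Entrez 58805, chr5:135089890-135138382, plus strand), which encodes ChREBP, was at 2096, 2005, 974, 1636 and 1808 CPM in Apoe-/- and at 3423, 1406, 1708 and 2091 CPM in Mif-2-/- Apoe-/- livers. Apart from replicate 1, the Mif-2-/- Apoe-/- libraries lay inside the Apoe-/- range. Its log2 fold change, 0.34 (SE 0.34, 95% interval -0.39 to 1.07, adjusted p = 0.675), was no larger than its standard error and fell to 0.03 without Mif-2-/- Apoe-/- replicate 1. The alpha and beta forms of ChREBP, which start at different promoters, are likewise merged in the count.

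Thrsp (Entrez 21835, chr7:97412938-97417730, minus strand, 2 exons), whose protein binds the related MID1IP1 and promotes lipogenesis, was the member with the clearest difference. It was at 359.9, 292, 380.3, 507 and 323 CPM in Apoe-/- livers and at 2745, 958, 1614 and 2127 CPM in Mif-2-/- Apoe-/- livers. The lowest Mif-2-/- Apoe-/- value, in replicate 2, was still above the highest Apoe-/- value, in replicate 4. Its mean rose from 373 ± 82.6 CPM in the 5 Apoe-/- to 1861 ± 759 CPM in the 4 Mif-2-/- Apoe-/- livers, a 5.0-fold difference. On the log2 scale this was 2.32 ± 0.34 (SE, 95% interval 1.6 to 3.05), with adjusted p = 0.0123 (edgeR) or 1.3e-09 (DESeq2). The exact permutation test gave p = 0.00794 (two-sided), the smallest that 5 against 4 libraries allow. The edgeR call was lost without Apoe-/- replicate 1, 2 or 3 (adjusted p = 0.0815, 0.0775 and 0.0701), where the log2 fold change was 2.22, 2.16 and 2.23. Without the shallow Mif-2-/- Apoe-/- replicate 2 it was 2.44 (adjusted p = 0.0064). The partner Mid1ip1 was at 58.4 ± 28.0 and 47.5 ± 32.3 CPM, with a log2 fold change of -0.29 (SE 0.57, adjusted p = 0.85).

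The enzymes that supply the pathway differed in opposite directions, by values that edgeR did not call over all genes. Acly (Entrez 104112, chr11:100476353-100528000, minus strand), which makes cytosolic acetyl-CoA from citrate, was at 11.5, 16.4, 20.2, 22 and 13.6 CPM in Apoe-/- and at 103, 35.8, 45.9 and 18.5 CPM in Mif-2-/- Apoe-/- livers. Replicates 1 to 3 of the Mif-2-/- Apoe-/- livers were above every Apoe-/- library, and replicate 4 was inside their range. The log2 fold change was 1.6 (SE 0.51, 95% interval 0.52 to 2.69). Its adjusted p was 0.175 in edgeR and 0.0383 in DESeq2, and the exact permutation test gave p = 0.0238. It was 1.0 at the lowest when a library was left out.

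Me1 (Entrez 17436, chr9:86581371-86695953, minus strand), the cytosolic malic enzyme, was at 23.6, 43.3, 41.3, 48.6 and 24.2 CPM in Apoe-/- and at 4.47, 21.0, 14.6 and 11 CPM in Mif-2-/- Apoe-/- livers. The genotypes did not overlap, although Apoe-/- replicates 1 and 5 lay close to Mif-2-/- Apoe-/- replicate 2. Me1 was 2.86-fold lower on average in Mif-2-/- Apoe-/- livers (log2 fold change -1.51, SE 0.54, 95% interval -2.67 to -0.35), and its adjusted p was 0.213 in edgeR and 0.0697 in DESeq2. The exact permutation test gave p = 0.00794, again the smallest possible, and it is not adjusted for the 10 genes examined. Without Mif-2-/- Apoe-/- replicate 2, DESeq2 called Me1 (log2 fold change -1.83, adjusted p = 0.0129).

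The genes of palmitate synthesis were not called. Fasn (Entrez 14104, chr11:120805846-120824547, minus strand) was at 73.9, 214, 149, 199.6 and 211 CPM in Apoe-/- and at 427, 181, 461 and 133 CPM in Mif-2-/- Apoe-/- livers. Replicates 1 and 3 of the Mif-2-/- Apoe-/- livers were more than any Apoe-/- library, and replicates 2 and 4 were within the Apoe-/- range, so the difference (log2 fold change 0.83, SE 0.42, 95% interval -0.07 to 1.72, adjusted p = 0.362) came with a wide spread. Acaca (Entrez 107476, chr11:84129672-84401651, plus strand) was at 132, 101, 67.1, 105 and 112 CPM in Apoe-/- and at 107, 78.4, 138 and 112 CPM in Mif-2-/- Apoe-/- livers. These values interleaved, the log2 fold change was 0.07 (SE 0.31, 95% interval -0.59 to 0.73, adjusted p = 0.94), and its sign turned under several settings, for example to -0.12 with TMMwsp factors.

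Scd1, Elovl6 and Pnpla3 did not differ beyond the spread of the libraries, and the first 2 depended on Mif-2-/- Apoe-/- replicate 2. Scd1 (Entrez 20249, chr19:44394455-44407879, minus strand), the main hepatic stearoyl-CoA desaturase, was at 514, 589.6, 603, 723 and 302 CPM in Apoe-/- and at 228, 966, 237 and 363 CPM in Mif-2-/- Apoe-/- livers. Replicate 2 was the highest of all 9 libraries, replicates 1 and 3 were below every Apoe-/- library, and replicate 4 was below all of them but Apoe-/- replicate 5. The log2 fold change was -0.29 (SE 0.43, 95% interval -1.21 to 0.63, adjusted p = 0.80) with all libraries and -1.08 without replicate 2, where edgeR still did not call it and DESeq2 did (log2 fold change -0.99, adjusted p = 0.0397). Scd2, Scd3 and Scd4 are similar genes, and how reads matching several genes were counted is not given in the sources used here.

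Elovl6 (Entrez 170439, chr3:129532355-129638495, plus strand), the elongase that carries palmitate to stearate, was at 36.2, 21.3, 81.2, 102 and 35.2 CPM in Apoe-/- and at 38.6, 143, 51.4 and 19.4 CPM in Mif-2-/- Apoe-/- livers. Both genotypes spread widely, and the log2 fold change of the genotypes, 0.19 (SE 0.58, 95% interval -1.05 to 1.42, adjusted p = 0.914), became -0.68 without Mif-2-/- Apoe-/- replicate 2. Pnpla3 (Entrez 116939, chr15:84167837-84187236, plus strand), a lipid droplet protein and target of SREBP-1, was at 7.41, 19.6, 80.8, 121 and 50.5 CPM in Apoe-/- and at 55.1, 58.5, 72.1 and 18.5 CPM in Mif-2-/- Apoe-/- livers. It varied 16.3-fold among the Apoe-/- libraries alone, the widest range of the 10 genes within a genotype, and its log2 fold change was -0.12 (SE 0.65, 95% interval -1.51 to 1.26, adjusted p = 0.952).

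Counts set against Srebf1 in the same library do not depend on the scaling between libraries, and by them too Thrsp and Me1 separated the genotypes. For each count of Srebf1 there were 0.401, 0.276, 0.476, 0.508 and 0.421 counts of Thrsp in Apoe-/- and 2.03, 1.03, 1.62 and 1.70 in Mif-2-/- Apoe-/- livers. Every Mif-2-/- Apoe-/- ratio was thus above every Apoe-/- ratio. A ratio of counts does not rank the levels, as Thrsp has 2.19 kb of exon and Srebf1 5.63 kb. Per kb of exon, Thrsp was above Srebf1 in Apoe-/- replicates 1, 3, 4 and 5 (232 against 177 CPM per kb in replicate 4). It was below Srebf1 in Apoe-/- replicate 2 (133 against 188 CPM per kb). The mean log2 difference in the ratio of Thrsp to Srebf1 counts was 1.93, or 3.8-fold. The ratio of Me1 to Srebf1 was 0.0263, 0.0409, 0.0518, 0.0487 and 0.0315 in Apoe-/- and 0.00331, 0.0227, 0.0146 and 0.00876 in Mif-2-/- Apoe-/- livers, a 3.9-fold lower mean in the latter without overlap. For both ratios the exact permutation test gave p = 0.00794 (two-sided, 9 ratios to Srebf1 computed, unadjusted). The ratio of Mlxipl to Srebf1 had a log2 difference of -0.01 (exact permutation p = 0.937), and those of Fasn (0.41, p = 0.476), Acaca (-0.24, p = 0.317) and Acly (1.05, p = 0.0794) overlapped between the genotypes. The ratio of Scd1 to Srebf1 was 0.572, 0.557, 0.756, 0.725 and 0.394 in Apoe-/- and 0.169, 1.04, 0.237 and 0.289 in Mif-2-/- Apoe-/- livers (log2 difference -0.82, exact permutation p = 0.183). It overlapped through Mif-2-/- Apoe-/- replicate 2 alone, the other 3 libraries being below every Apoe-/- library, and without that replicate the log2 difference was -1.37.

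**Figure D3:**
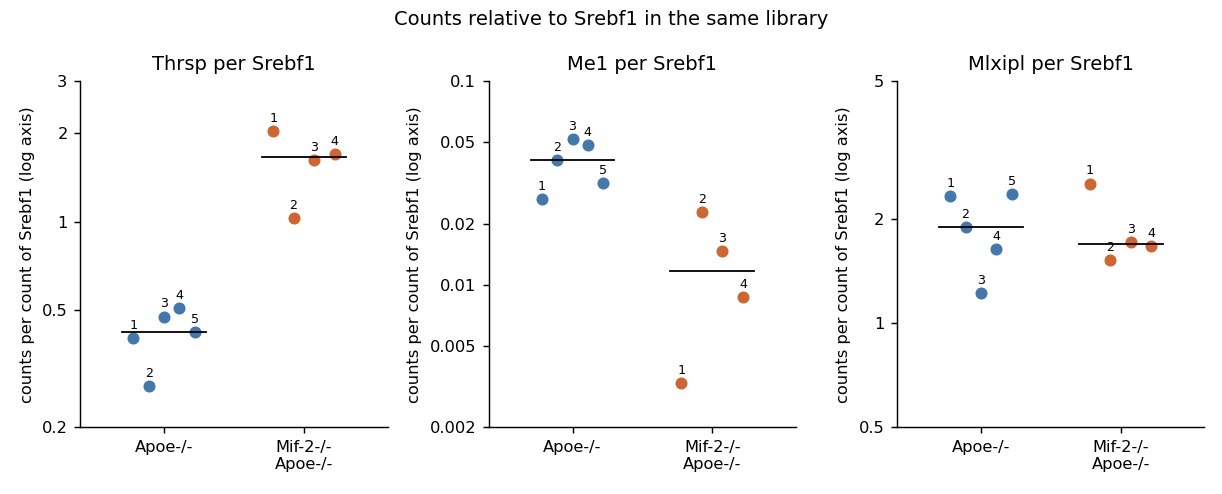
Counts of Thrsp, Me1 and Mlxipl per count of Srebf1 in each library (vertical log axis), numbered by replicate, with Apoe-/- in blue, Mif-2-/- Apoe-/- in orange and the group median as a line. In Mif-2-/- Apoe-/- libraries Thrsp is higher and Me1 lower without overlap, and Mlxipl overlaps.

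Per kb of exon, levels of different genes can be compared only roughly, as the length merges the exons of all annotated transcripts. By it Mlxipl led in Apoe-/- livers with a mean of 308 ± 80.4 CPM per kb. Thrsp followed with 170.1 ± 37.7 and Srebf1 with 161 ± 22.2, and this pair lay within each other's spread. In Mif-2-/- Apoe-/- livers Thrsp led with 849.8 ± 347 CPM per kb, ahead of Mlxipl with 389 ± 160.5 and Srebf1 with 201 ± 35.9. Scd1 was the highest enzyme in both genotypes, with 112 ± 31.9 and 91.7 ± 71.7 CPM per kb. The mean of the 3 Mif-2-/- Apoe-/- libraries other than replicate 2 was 56.4 ± 15.4 CPM per kb for Scd1. Acly was the lowest of the 10 in Apoe-/- livers with 3.17 ± 0.83 and Me1 the lowest in Mif-2-/- Apoe-/- livers with 3.32 ± 1.8. The neighbours Me1, Elovl6 and Acaca in Apoe-/- livers (9.4 ± 3.0, 8.58 ± 5.37 and 6.07 ± 1.38 CPM per kb) did not differ beyond their spread.

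The level of Scd1 rose with a property of the libraries more closely than that of any other tested gene at 10 CPM or more. Ordered by Scd1, the 9 libraries fell in the same order as by the share of counts in each library's 10 most abundant genes. Pearson's r was 0.99 and Spearman's rho 1.0 over 9 libraries, and r was 0.98 without the 2 libraries farthest from the median share. The 10 genes of highest mean level are mostly secreted plasma proteins of the hepatocyte such as Alb and Apoa1. The points share their library. The share is of all counts of a library, while CPM are scaled to the counts of the tested genes, without the 10 genes of highest mean level. Of the 8153 genes that averaged 10 CPM or more, none other had a higher r, 0.944% reached 0.9, and the median r was -0.06. Negative values were not ranked by size, and the 10 genes left out of the test were not among the 8153. Among the other members r with this share was 0.67 for Me1, 0.62 for Elovl6 and 0.08 for Pnpla3, and it was negative for the other 6, at -0.64 for Mlxipl and for Acaca, -0.54 for Fasn, -0.45 for Thrsp, -0.36 for Srebf1 and -0.34 for Acly. With the share as a covariate in the edgeR fit, only Thrsp of the 10 was called (log2 fold change 2.12, adjusted p = 0.0079). In that fit the log2 fold change was 0.52 for Fasn, 0.12 for Mlxipl, 0.29 for Srebf1, 1.43 for Acly, -1.28 for Me1, 0.47 for Elovl6 and -0.08 for Scd1. The part of the share in these differences was not tested.

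Set against the 10 most abundant genes of the same library, which need not be the same genes in each, Scd1 was nearly even across the Apoe-/- livers. It had 1.77, 1.93, 1.88, 1.81 and 1.97 counts per 1000 counts of those genes in Apoe-/- and 1.49, 2.72, 1.69 and 1.79 in Mif-2-/- Apoe-/- livers. Replicate 2 of the Mif-2-/- Apoe-/- livers was again the highest.

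**Figure D4:**
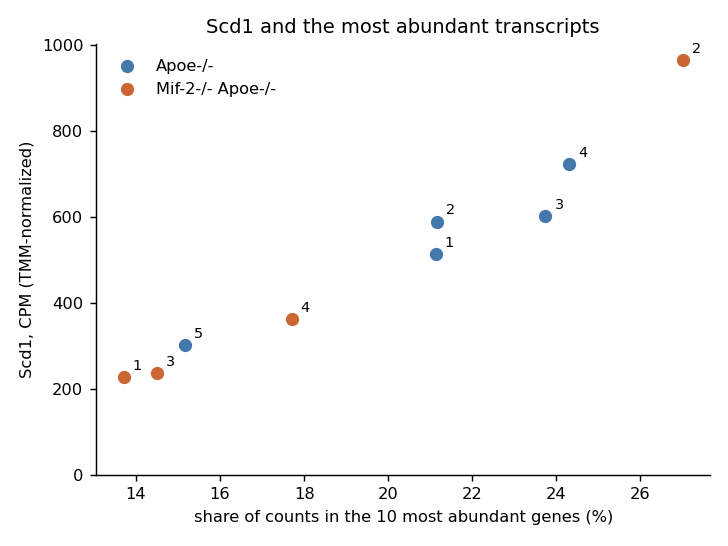
Scd1 in CPM (vertical axis, from 0) against the percent of counts in the 10 most abundant genes of each library (horizontal axis). The 5 Apoe-/- libraries are blue and the 4 Mif-2-/- Apoe-/- libraries orange, numbered by replicate. Both measures put the 9 libraries in the same order, from Mif-2-/- Apoe-/- replicate 1 at 13.71% to replicate 2 at 27.0%.

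The 10 genes did not move as a block from library to library. Mif-2-/- Apoe-/- replicate 1 had the highest value of all 9 libraries for 4 members (Srebf1, Mlxipl, Thrsp and Acly) and the lowest for 2 (Scd1 and Me1), while replicate 2 was highest for Scd1 and Elovl6, replicate 3 for Fasn and Acaca, and Apoe-/- replicate 4 for Me1 and Pnpla3. As a description over the 9 libraries, which share preparation and depth within each library, Pearson's r of log2(CPM + 0.5) was 0.76 between Srebf1 and Thrsp, 0.73 between Srebf1 and Mlxipl, and 0.78 between Fasn and Acly. It remained 0.66, 0.71 and 0.73 for deviations from the genotype means. For Thrsp and Me1 it was -0.87 over all libraries and -0.58 within the genotypes, for Scd1 and Me1 0.70 and 0.73, and for Srebf1 and its target Fasn 0.36 and 0.09.

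The genes whose pattern was most like that of each regulator were found among those of at least 10 CPM by the same r over 9 libraries. For Srebf1 they were Nfkb2 (0.954), D430042O09Rik (0.952) and Dmac2 (0.932), and for Mlxipl they were Adpgk (0.972), Irf1 (0.960) and C1s1 (0.951). For Thrsp they were the P450 gene Cyp2b9 (0.969), the thymidine kinase Tk1 (0.946) and Cyp2b13 (0.934), whose r for deviations from the genotype means was lower, at 0.724, 0.81 and 0.306. Cyp2b9 and Cyp2b13 are near-identical genes that could share reads, so their separate values are uncertain.

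Around the 10 genes, 71 further genes of the pathway were examined in 4 lists, and edgeR called none of them. At an unadjusted p under 0.05, 5 were higher (7.04%, beside 8.99% of all genes) and 12 were lower (16.9%, beside 6.52%). DESeq2 called 2 higher (Ppargc1b and Acss2) and 5 lower (Insig2, Gpd1, Fgf21, Tkt and Elovl3) of the 70 it gave an adjusted p, or 7 of 70 beside 4.80% of all genes. Their median log2 fold change was -0.25, with 30 positive and 41 negative values. In 3 of the 71 every Mif-2-/- Apoe-/- library was higher (beside 2.03% of all genes) and in 3 every one was lower (beside 2.24%). Without Mif-2-/- Apoe-/- replicate 2, edgeR called 2 of the 71, Ppargc1b higher (log2 fold change 2.51, adjusted p = 0.0372) and Gpd1 lower (-1.54, adjusted p = 0.0459). That fit called 262 genes in all, against 22 with all libraries.

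Of the 23 genes that activate or restrain SREBP-1, the median log2 fold change was 0.05. Ppargc1b, a coactivator of SREBP-1, was at 9.74, 8.58, 21.6, 5.04 and 17.2 CPM in Apoe-/- and at 61.4, 52.8, 100.3 and 57.8 CPM in Mif-2-/- Apoe-/- livers. Every Mif-2-/- Apoe-/- library was higher, by 5.52-fold on average (log2 fold change 2.47, SE 0.48, adjusted p = 0.0731, DESeq2 1.2e-04). Insig2, which retains SREBP in the endoplasmic reticulum and was picked out after its values were seen, was at 123, 116, 94.8, 138 and 26.5 CPM in Apoe-/- and at 30.5, 18.2, 18.6 and 42.8 CPM in Mif-2-/- Apoe-/- livers. Apoe-/- replicate 5 lay among the Mif-2-/- Apoe-/- libraries, and the other 4 Apoe-/- libraries were above all of them (log2 fold change -1.85, SE 0.48, adjusted p = 0.137, DESeq2 0.0071).

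The other genes of this list had smaller log2 fold changes, and edgeR called none. At an unadjusted p under 0.05, 3 of the 23 were higher and 2 lower, beside 8.99% and 6.52% of all genes. Srebf2, which encodes SREBP-2 and was picked out after its values were seen, was at 18.6 ± 8.89 and 46.1 ± 18.8 CPM with overlap (log2 fold change 1.31, SE 0.48, adjusted p = 0.22, DESeq2 0.0857). Insig1 was at 7.8 ± 6.16 and 7.51 ± 2.96 CPM, Scap, the escort of SREBP, had a log2 fold change of 0.46 (SE 0.32, adjusted p = 0.516), and Mbtps1, the protease that cuts it, 0.05. Nr1h2, encoding LXR-beta, was higher without overlap by 0.63 (adjusted p = 0.302), and Akt2, a kinase of insulin signaling, lower without overlap by -0.69 (adjusted p = 0.314), while Nr1h3, encoding LXR-alpha, overlapped at -0.33.

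The 12 partners and targets of ChREBP had a median of -0.16. Fgf21, a hepatokine, averaged 52.3 ± 29.6 CPM in Apoe-/- against 15.7 ± 5.85 CPM in Mif-2-/- Apoe-/- livers without overlap (log2 fold change -1.73, SE 0.52, adjusted p = 0.168, DESeq2 0.0298). The glycerol-3-phosphate dehydrogenase Gpd1 was at 512 ± 129 and 236 ± 100.5 CPM (-1.12, SE 0.34, adjusted p = 0.171, DESeq2 0.0307). The glycolytic ChREBP target Pklr had a value of -0.08, smaller than its standard error of 0.35.

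Of the 12 genes that supply acetyl-CoA and NADPH, 8 had negative values, and the median was -0.44. Acss2, which makes cytosolic acetyl-CoA from acetate beside the citrate route of Acly, was at 17.6, 19.7, 30.5, 22.4 and 16.1 CPM in Apoe-/- and at 68.3, 71.6, 58.2 and 46.6 CPM in Mif-2-/- Apoe-/- livers. It was 2.89-fold higher without overlap (log2 fold change 1.53, SE 0.38, adjusted p = 0.132, DESeq2 7.1e-04). Tkt and Taldo1 of the pentose phosphate pathway had values of -1.02 (SE 0.34, adjusted p = 0.184, DESeq2 0.0396) and -1.04 (SE 0.34, adjusted p = 0.182). These enzymes do not themselves make NADPH. Of the pathway's enzymes that do, G6pdx was at -0.94 (SE 0.56) and Pgd at -0.35 (SE 0.36, adjusted p = 0.694). Without Mif-2-/- Apoe-/- replicate 2, DESeq2 did not call Tkt (-0.84, adjusted p = 0.0571) or G6pdx (-1.1, adjusted p = 0.172). It then called Taldo1 (-1.28, adjusted p = 0.0059) and Cs of the same list (-1.24, adjusted p = 0.0186).

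The 24 partners in fatty acid synthesis, elongation and desaturation had a median of -0.32. Elovl3, an elongase of saturated and monounsaturated long chains, was at 30.2, 40.8, 27.7, 34.7 and 17.0 CPM in Apoe-/- and at 6.51, 2.27, 2.52 and 11 CPM in Mif-2-/- Apoe-/- livers. Every Mif-2-/- Apoe-/- library was lower, by 5.3-fold on average (log2 fold change -2.41, SE 0.63, adjusted p = 0.141, DESeq2 0.0015). The Elovl3 values of Mif-2-/- Apoe-/- replicates 2 and 3 rested on 4 and 10 counts. Acacb, the mitochondrial counterpart of Acaca, was at 156 ± 51.8 and 183 ± 63.1 CPM (0.23, SE 0.34), and the desaturase Fads1 at 243 ± 83.7 and 122 ± 78.4 CPM (-1.0, SE 0.42, adjusted p = 0.274). Without Mif-2-/- Apoe-/- replicate 2 the log2 fold change of Fads1 was -1.62 (adjusted p = 0.0592, edgeR), and DESeq2 called it (-1.54, adjusted p = 0.0012).

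**Figure D5:**
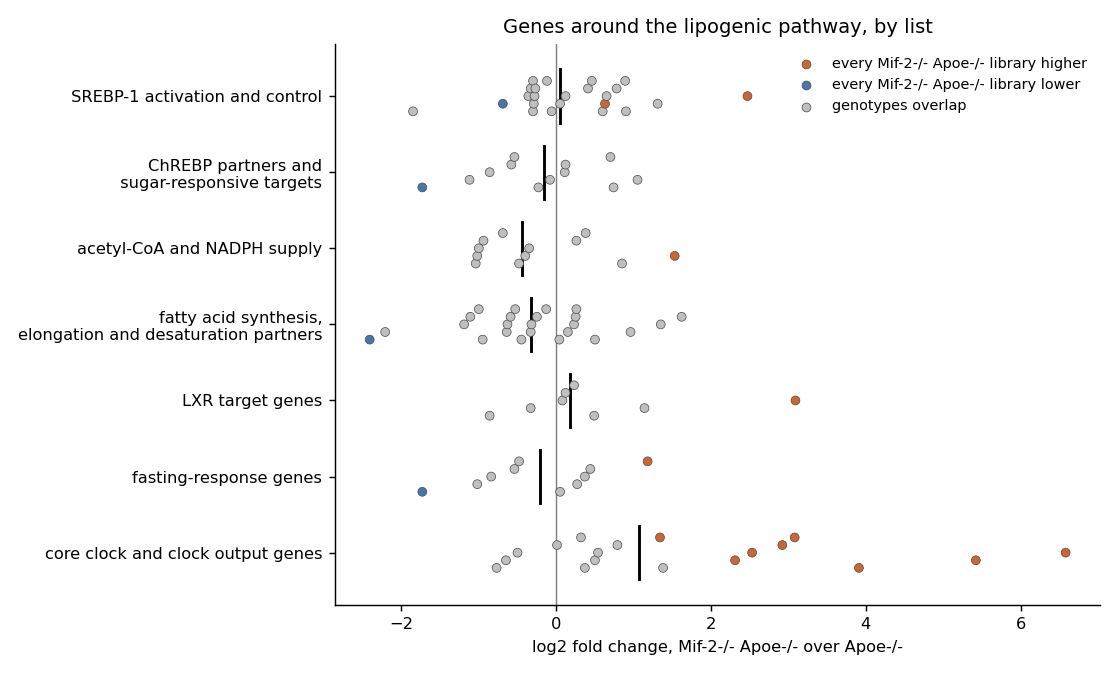
Log2 fold change (horizontal axis) of each gene in 4 lists of the lipogenic pathway and 3 lists of related programs, with the list median as a black bar. Orange and blue points are genes in which every Mif-2-/- Apoe-/- library lies above or below every Apoe-/- library, and 8 of the 18 tested clock genes are orange.

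Genes of the circadian clock were set beside the 10 as a program that bears on lipogenesis. This list, like the others, was chosen with earlier results of these data known. Of 18 tested genes of the clock and its output, edgeR called 4 higher and 0 lower in Mif-2-/- Apoe-/- livers (Dbp, Tef, Ciart and Usp2), beside 0.130% of all genes. In 8 of the 18 every Mif-2-/- Apoe-/- library was higher, beside 2.03% of all genes, and in none was every one lower, beside 2.24%. Tef averaged 78.8 ± 45.6 CPM in Apoe-/- against 599 ± 141 CPM in Mif-2-/- Apoe-/- livers (log2 fold change 2.92, SE 0.43, adjusted p = 0.0123). Without TMM scaling, the clock list summed to 351 to 588 CPM in Apoe-/- and to 1443 to 2288 CPM in Mif-2-/- Apoe-/- libraries. The genotypes thus did not overlap in this sum, as in Thrsp and in 2.03% of all genes in the same direction. Thrsp is a gene with a known daily rhythm. The labels give no hour of sampling, and the part of the clock genes in the difference of Thrsp and Me1 was not tested.

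Of 10 fasting-response genes, edgeR called none and the median was -0.22. At an unadjusted p under 0.05, 1 was higher and 1 lower, beside 8.99% and 6.52% of all genes. DESeq2 also called 1 in each direction, beside 4.80% in either direction of the genes for which it gave an adjusted p. Pck1, the gluconeogenic enzyme PEPCK, averaged 834 ± 282 CPM in Apoe-/- against 1886 ± 787 CPM in Mif-2-/- Apoe-/- livers without overlap (log2 fold change 1.18, adjusted p = 0.171, DESeq2 0.0234), while G6pc and Fgf21 had negative values. Of 8 target genes of LXR, which also drives Srebf1, edgeR called none, 1 was higher and 1 lower at an unadjusted p under 0.05 (the same shares of all genes apply), and the median was 0.18. Mylip, picked out after its values were seen, was at 1.82 ± 0.591 and 15.8 ± 10.2 CPM (log2 fold change 3.09, SE 0.85, adjusted p = 0.146, DESeq2 0.0027). It rested on 4 to 17 counts in each Apoe-/- library. Mif-2-/- Apoe-/- replicate 4 had 11 counts (2.52 CPM), close to the highest Apoe-/- value of 2.28 CPM.

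Fat tissue expresses several of the 10 genes strongly, so its markers were set beside them. Without TMM scaling, the 8 adipocyte markers summed to 49.1 to 119 CPM in Apoe-/- and 87.6 to 179 CPM in Mif-2-/- Apoe-/- libraries. Lipe was at 39.5 ± 14.8 and 75.9 ± 45.5 CPM and Adrb3 at 6.21 ± 4.49 and 57.0 ± 11.4 CPM, the latter without overlap (log2 fold change 3.19, SE 0.72, adjusted p = 0.106, DESeq2 5.3e-04). The defining marker Adipoq had between 0 and 8 counts in each library, and Fabp4 was lower in every Mif-2-/- Apoe-/- library (means of 22.3 and 9.96 CPM, adjusted p = 0.373). Plin1 was at 79 counts in Apoe-/- replicate 5 and 135 counts in Mif-2-/- Apoe-/- replicate 3 and at 5 or fewer in the other 7 libraries, and Lep had 30 counts in Apoe-/- replicate 5 and at most 1 elsewhere. Of the 7 hepatocyte markers tested, 5 had negative and 2 positive values, with a median log2 fold change of -0.29. Serpina1c averaged 4085 ± 1369 CPM in Apoe-/- against 2232 ± 1391 CPM in Mif-2-/- Apoe-/- livers (1563 ± 470.1 in the 3 libraries other than replicate 2), and Asgr1 1329 ± 417 against 684 ± 270 CPM, both with overlap. Asgr1 was lower at an unadjusted p of 0.0181 (edgeR), and Tat was higher (means of 317 and 655 CPM, log2 fold change 1.05, unadjusted p = 0.0177, edgeR). No marker of any of the 8 cell type lists was called by edgeR. Of the 55 tested, 3 were higher and 3 lower at an unadjusted p under 0.05 (beside 8.99% and 6.52% of all genes). DESeq2 called Adrb3 higher and Cd5l lower, beside 4.80% of the genes for which it gave an adjusted p. The part of adipocyte RNA, or of a different share of hepatocyte RNA, in the values of the 10 genes was not tested.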

How the data were processed

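Bulk RNA sequencing was performed on lysates of frozen liver sections with a full-length, oligo-dT primed protocol. Per the labels, the authors checked reads with FastQC, trimmed them with cutadapt and aligned them to mm10 with HISAT2 (versions not given), and they deposited raw counts of exon reads per Entrez gene; the counter and its strand setting are not given in the sources used here. Symbols were matched to 25275 of 27179 identifiers, and 1 line without an identifier was left out. Exons of 5 of the 10 genes share 30 to 235 bases with another gene.

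The labelled genotype set the groups, and all 9 libraries were used, with 2318148 to 10764182 counts each. A gene was kept if 3 or more libraries of a genotype held a count of 1 or more. The 10 genes of highest mean CPM over the libraries were left out. Both steps follow what the study's methods describe for RNA-seq of whole liver lysates. On the remaining 16860, edgeR 4.0.16 was run (quasi-likelihood test, TMM, Benjamini-Hochberg adjustment over all) in R 4.3.3; DESeq2 1.42.0, the study's tool, was an alternative. SE is the absolute log2 fold change over the square root of F, 95% intervals use the t quantile at the test's degrees of freedom, and adjusted p-values are those of edgeR unless DESeq2 is named. For single values, exact permutation (two-sided) went through every assignment of the libraries to the genotypes on log2(CPM + 0.5). Exon lengths are from GENCODE M21. The code was tested on simulated data. The 10 genes and the lists were chosen with earlier results of these data known. Of each pathway list, genes called and up to 3 non-overlapping genes of at least 10 CPM with the largest change are named; others were named for their role after their values were seen. Alternatives were other factors, filters, gene exclusions, a replicate block, DESeq2 and each library left out. The share of abundant genes as covariate, thinned counts and DESeq2 without Mif-2-/- Apoe-/- replicate 2 were added after seeing the data. A few list genes are not reported here by name.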

Additional observations from a re-analysis of the deposited data

How the results depend on the processing

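The positive log2 fold change of Thrsp, Srebf1, Mlxipl, Fasn and Acly and the negative one of Me1 and Scd1 kept their sign in all 20 alternatives. Thrsp was called in all 11 alternatives that used another setting (2.11 to 2.51) and in 6 of 9 with a library left out. The number of genes called was 560 with the replicate block, 686 by DESeq2, 63 with the share of abundant genes as covariate and 1351 when Mif-2-/- Apoe-/- replicate 2 was left out of DESeq2, and the cause was not tested. Of the 10 genes, DESeq2 called 2, and 4 without that replicate, beside 686 and 1351 over all genes. Without that replicate the values were 1.71 for Acly, -0.99 for Scd1 and -1.83 for Me1. With all libraries DESeq2 put Acly at 1.6. Of the 71 pathway genes, 4 were called with the replicate block, 7 by DESeq2, and 13 when DESeq2 was run without that replicate. Beside these stand 560, 686 and 1351 called over all genes. The sign turned for Acaca with TMMwsp (-0.12), with the abundant genes kept or mitochondrial, rRNA, Gm and Rik genes left out (-0.01 each) and with the covariate (-0.08). It turned for Elovl6 with the block (-0.12) and by DESeq2 without that replicate (-0.60), and for Pnpla3 with the block (0.49), the covariate (0.05) and thinned counts (0.03). TMMwsp also moved the median of all genes by -0.17, so changes are best read against that median.

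Leaving out single libraries gave 9 to 262 called genes, 262 without Mif-2-/- Apoe-/- replicate 2, 5.73 times the full number without Apoe-/- replicate 5, and 9 to 14 without Apoe-/- replicate 1, 2, 3 or 4 or Mif-2-/- Apoe-/- replicate 3. Of the 10 genes 0 to 1 were called and of the pathway genes 0 to 2. The log2 fold change ranged from 2.08 to 2.44 for Thrsp, 0.19 to 0.38 for Srebf1, 0.03 to 0.43 for Mlxipl, 0.54 to 1.07 for Fasn, 1.0 to 1.88 for Acly, -0.14 to 0.11 for Acaca, -1.08 to -0.06 for Scd1, -0.68 to 0.49 for Elovl6, -1.93 to -1.22 for Me1 and -0.49 to 0.33 for Pnpla3. Libraries of the same replicate number did not deviate together (1 of 4 correlations was over 0.1, range -0.026 to 0.138), so the number was not taken as a pairing. Among the 10 genes, the fewest counts behind a value were those of Me1, which rested on 22 to 58 counts in each Mif-2-/- Apoe-/- library.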
